A study of Mus musculus with 91 samples.

Results

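Livers of mice given piperonyl butoxide (PBO) for 28 days were compared with livers of the vehicle cohort that the labels name as their control. The members are set by their labels and are 9 of the 91 arrays of the series, 4 of PBO and 5 of the control, with 1 array per liver. No measured value enters the rule. The series is a collection of mouse livers exposed to chemicals, many of them liver tumour promoters or activators of nuclear receptors, in 19 groups. Total liver RNA was measured on Affymetrix expression arrays, on which a set of probes reports each transcript.

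The PBO mice were adult C57BL males on a C57BL/6J background and received 600 mg/kg every day by intraperitoneal injection. PBO is the additive that makes pyrethrin insecticides last longer in insects, since it blocks their cytochrome P450 enzymes. The control mice, cohort Co2, were C57BL males labelled carboxymethylcellulose (CMC), 0 mg/kg, for the same 28 days. Carboxymethylcellulose is a thickener used to suspend compounds for dosing, and how it was given is not stated in the labels. The series states a group size of 5 with random assignment, so the arrays were taken as separate mice, and the fifth PBO liver is not analysed here. No engineered allele is named in the labels of either group. Because whole livers were used, fewer cells of a type and less RNA per cell cannot be told apart.

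Hepatocytes sense foreign compounds with a few receptors that act as transcription factors. The constitutive androstane receptor (CAR) and the pregnane X receptor (PXR) switch on cytochrome P450 genes of the 2b, 2c and 3a families together with carboxylesterases, glutathione transferases and export pumps, and the aryl hydrocarbon receptor (AhR) switches on the 1a family. Phenobarbital is the usual reference compound for CAR, and in rodents a lasting activation of CAR is linked to liver enlargement and liver tumours.

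PBO and Co2 had the lowest mean scores of all groups on the main axis of variation. On the first principal component of all 91 arrays, which held 27.5% of the variance, the PBO livers scored between −56.5 and −31.8 and the Co2 livers between −66.5 and −32.7. Every other group scored higher on average, but single livers overlapped. PBO liver 2 and Co2 livers 3 and 4 lay inside the range of Co1, −37.6 to −20.7, and 1 liver of the group labelled WY scored −33.5. Within the groups, PBO liver 2, at −31.8, lay away from the other 3 PBO livers, and Co2 livers 1 and 2 lay below livers 3, 4 and 5. Pairwise correlations of the arrays over genes stayed at or above 0.981 within PBO, 0.979 within Co2 and 0.972 between them, and a correlation with a liver of another CMC cohort reached 0.989. Co2 was also unlike the other 4 CMC cohorts of C57BL mice (Co1, Co3, Co4 and Co5, 17 livers). Against their mean 5638 genes (31%) differed, 2566 (14.1%) higher and 3072 (16.9%) lower in Co2, a split of 45.5% higher that became 32.3% when each array was centred on its median. The labels name no reason for these differences. Since the route of the vehicle in Co2 is not stated, a difference in route between the CMC cohorts cannot be told apart from other differences.

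**Figure D1:**
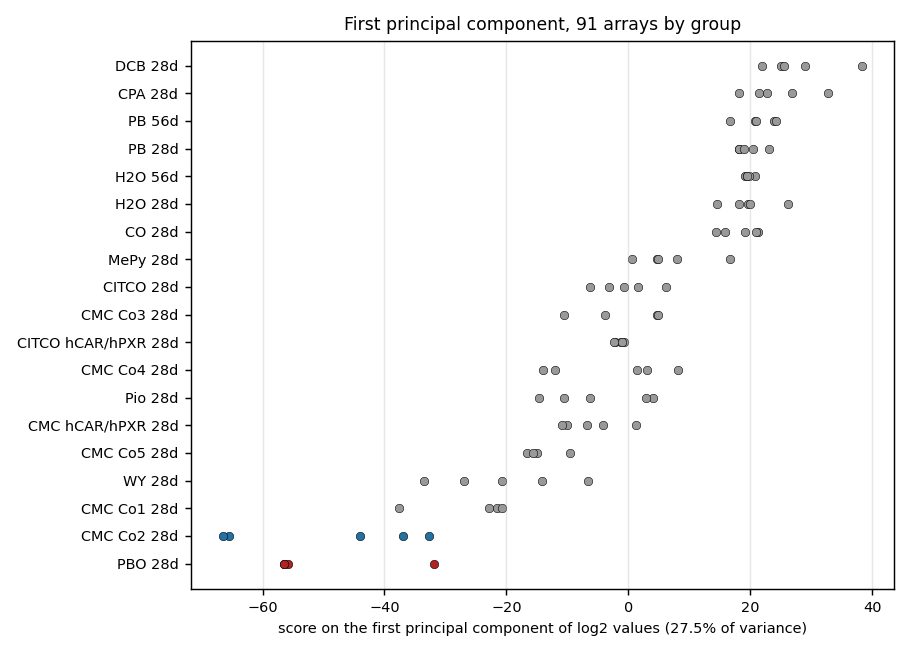
Score of each array on the first principal component of the log2 values (x axis, no unit) for the 19 groups (y axis, ordered by mean). Each point is 1 liver, PBO in red, its control cohort CMC Co2 in blue and all other groups in grey. PBO and Co2 have the lowest means, but PBO liver 2, at −31.8, and Co2 liver 3, at −32.7, lie among livers of other groups.

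The tissue label was checked against cell markers. The mean of 22 hepatocyte markers lay between 13.27 and 13.32 in PBO livers and between 13.29 and 13.53 in Co2 livers. Lists of pancreas, skeletal muscle, red cell, fat and mesothelial markers held no gene that differed between PBO and Co2, with list means between 5.08 and 7.0 in these livers, beside array medians of 5.23 to 5.36. A comparison of PBO with Co2 cannot show cells that both groups share. Against the other CMC cohorts 7 of 12 mesothelial markers were higher in Co2 and 5 in PBO, where 31% and 33% of all genes differed. Values are log2 expression values on which 1 unit is a 2-fold change, and ± gives the standard error of the fit unless SD is stated. The fit pools the spread within all 19 groups. Its errors, intervals and p-values therefore do not measure the spread among the 4 PBO livers, which was wider for some genes. A gene passed, and is said to have risen or fallen, at an adjusted p below 0.05 (limma, two-sided, Benjamini-Hochberg over all 18193 genes).

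In all, 147 genes (0.808% of those tested) differed between PBO and Co2, 89 higher (0.489%) and 58 lower (0.319%). At least 2-fold changes were seen for 20 of the risen and 15 of the fallen genes, and 2253 genes had an unadjusted p below 0.05. All 4 PBO values lay outside the range of the 5 Co2 values for 456 genes (2.51%), among them 67 of the 89 risen and 28 of the 58 fallen genes. The count of passing genes was 241 without PBO liver 2, 71 without PBO liver 3, 221 without Co2 liver 1, 271 without Co2 liver 2 and 95 without Co2 liver 3. Of the risen genes 31, and of the fallen genes 9, passed whichever of the 9 livers was left out. When only these 9 arrays were fitted, in place of all 91, 10 genes passed, among them Ces2a, Cyp3a11, Vnn1, Apoa4, Enho, Igtp and Rdh16f2. When arrays were weighted by their scatter, 124 passed, of which 30 were higher and 52 were among the 147. The lowest weights in that fit were 0.316 for Co2 liver 2, 0.342 for PBO liver 2 and 0.347 for Co2 liver 1.

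The strongest rises were in genes of the CAR programme, and they differed greatly from liver to liver. Cyp2c55, a cytochrome P450 of the 2c family that oxidises drugs and fatty acids, stood at 8.10, 13.03, 10.90 and 9.41 in PBO livers 1 to 4. In Co2 livers 1 to 5 it stood at 6.62, 6.07, 6.28, 5.84 and 6.87. All PBO livers were above all controls, liver 2 by far the most and liver 1 the least. The difference was 4.02 ± 0.394, a 16.3-fold rise (adjusted p = 4.18e-12), and it lay between 3.13 and 4.78 when any 1 liver was left out. The SD was 2.12 among the PBO livers and 0.415 in Co2. With only the 9 arrays fitted, Cyp2c55 had an adjusted p of 0.0561.

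Cyp2b10, the classical CAR target of mouse liver and the gene most often used to read CAR activity, followed the same order of livers. Its values at the reported probe set were 6.07, 11.89, 8.06 and 7.07 under PBO and 5.88, 5.87, 4.98, 5.33 and 5.82 in the controls. Liver 1 was barely above the highest control, whereas liver 2 was higher than any other by over 3 units. Cyp2b10 rose by 2.70 ± 0.495 (adjusted p = 0.000536), by 1.49 without PBO liver 2, and by 4.0 as the mean of its 3 probe sets. Nebl, which encodes the actin-binding protein nebulette, had 5.27, 8.46, 7.81 and 5.76 in the PBO livers and 4.50, 4.14, 3.98, 3.94 and 3.89 in Co2. It rose by 2.73 ± 0.270 (adjusted p = 4.18e-12), again most in livers 2 and 3. Over other fits and probe set rules the rise of Nebl lay between 1.1 and 2.89, and 2 of its 3 probe sets passed. With only the 9 arrays fitted, Cyp2b10 and Nebl did not pass, at adjusted p-values of 0.469 and 0.0763.

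The list of CAR targets held 33 measured genes. It was chosen with earlier results of these data known, and it includes Nebl and Meig1. Its counts and means are therefore a description and not a test. Of the 33 genes 13 rose, none fell and 20 did not pass, with a median difference of 0.56 beside 0.01 over all genes tested. Over all genes tested 0.489% rose and 0.319% fell. The mean level of the list was 9.11, 10.32, 9.53 and 9.42 in PBO livers 1 to 4 and lay between 8.68 and 8.83 in Co2, so the groups did not overlap. Besides Cyp2c55, Cyp2b10 and Nebl the risen members were Gstm3, Gstm2 and Gstm1 and Gstt3, glutathione transferases, Ces2a, a carboxylesterase, Cyp2c29, a cytochrome P450, Ephx1, the microsomal epoxide hydrolase, the aldehyde dehydrogenases Aldh1a1 and Aldh1a7, and Meig1, a gene best known from sperm formation. Against the mean of the other 4 CMC cohorts 19 of the 33 were higher and 1 was lower, in a comparison where 5995 of all genes (33%) differed. Aldh1a1 lost its call without PBO liver 3 (0.49) or Co2 liver 1 (0.40). Members of the Cyp2b, Cyp2c, Cyp3a and Gstm families have close sequences, so signal may be shared between their probe sets.

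**Figure D2:**
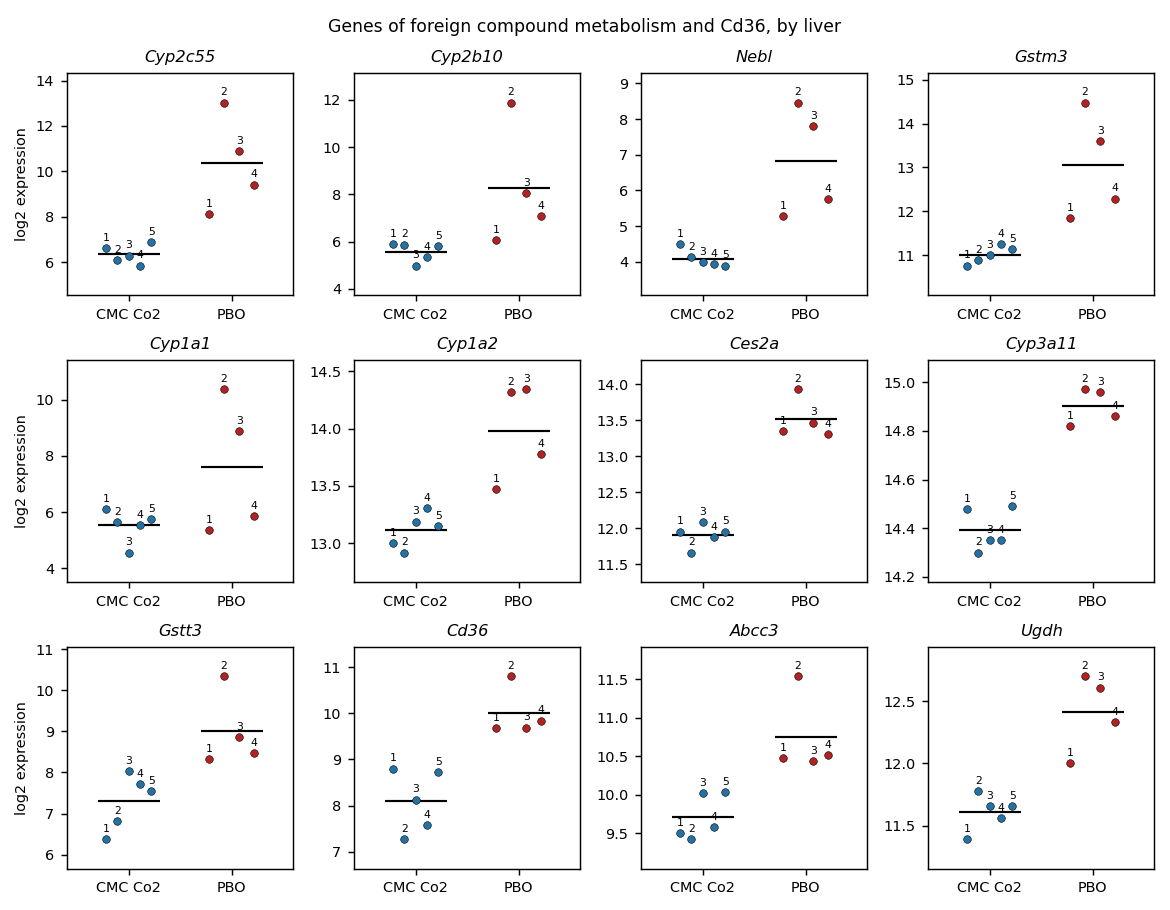
Log2 expression (y axis) of 12 genes in each CMC Co2 liver (blue) and each PBO liver (red), with the liver number beside each point and the group mean as a bar. Cyp2c55, Cyp2b10, Nebl, Gstm3 and Cyp1a1 are spread widely among the PBO livers with liver 2 highest, while Ces2a lies between 13.31 and 13.93 and Cyp3a11 between 14.82 and 14.97.

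The order of the livers was shared by many of the risen genes. Among the 20 that rose at least 2-fold, liver 2 was farthest from the control mean for 16, and the median distance was 2.21 in liver 2, 1.53 in liver 3, 1.24 in liver 4 and 0.88 in liver 1. Among all 89 it was farthest for 50 genes, and liver 1 was nearest to the controls for 46. The 58 fallen genes did not show this order, with median distances of −0.48, −0.60, −0.71 and −0.68 in livers 1 to 4. These distances describe genes chosen on the same arrays and were not tested.

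Other genes rose in all 4 livers with a smaller spread. Ces2a, a carboxylesterase of the endoplasmic reticulum that hydrolyses drug esters and acylglycerols, had 13.35, 13.93, 13.47 and 13.31 under PBO and 11.95, 11.66, 12.08, 11.87 and 11.95 in Co2. Every PBO liver was more than 1 unit above every control. It rose by 1.61 ± 0.129 and had the smallest adjusted p of all genes, 3.90e-16, and it passed in each fit, also with only the 9 arrays. Cyp3a11, the main mouse 3a cytochrome P450 and the classical PXR target, had 14.82, 14.97, 14.96 and 14.86 against 14.48, 14.30, 14.35, 14.35 and 14.49. It rose by 0.51 ± 0.0545 (adjusted p = 1.22e-10), with both groups close to the highest value of the whole table, 15.34, where array signals flatten. Cyp3a44, a female-biased relative of Cyp3a11, had 5.33, 5.89, 5.47 and 5.91 against 4.41, 4.03, 4.28, 4.75 and 5.00 and rose by 1.16 ± 0.174 (adjusted p = 7.21e-06). Cyp2c29 rose by 0.65 ± 0.116, again with no overlap.

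Of 15 measured PXR targets 6 rose and none fell, beside 0.489% and 0.319% of all genes, with a median of 0.51. They were Cyp3a11, Cyp3a44, Ces2a, Abcc3, Aldh1a1 and Cd36, and the other 9 were all higher in PBO without passing. In Co2 6 of the 15 were lower and 1 higher than in the other cohorts, beside 16.9% and 14.1% of all genes. Where 33% of all genes differed, 5 were higher in PBO against those cohorts and none lower, with a median of 0.23. Abcc3, a pump that moves glucuronides and bile acids from hepatocytes to the blood, had 10.48, 11.54, 10.44 and 10.52 against 9.50, 9.42, 10.02, 9.58 and 10.03 and rose by 1.03 ± 0.207 (adjusted p = 0.00221). Against the other cohorts, whose means lay between 10.20 and 10.74, Abcc3 stood at 0.23 and did not pass (adjusted p = 0.313). The receptors themselves did not pass. Nr1i3, which encodes CAR, differed by 0.04 ± 0.240, Nr1i2, which encodes PXR, by 0.41 ± 0.188 and Ahr by 0.32 ± 0.243, with adjusted p-values of 0.971, 0.336 and 0.634.

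Of the AhR targets, Cyp1a1 and Cyp1a2 rose. Cyp1a1, the cytochrome P450 most tightly bound to AhR activity, had 5.35, 10.37, 8.89 and 5.85 in PBO livers 1 to 4 and 6.12, 5.65, 4.56, 5.53 and 5.76 in Co2. Only livers 2 and 3 lay above the controls, livers 1 and 4 lay inside their range, and the groups overlapped. The difference was 2.09 ± 0.376 (adjusted p = 0.000371), 1.17 at the lowest with 1 liver left out, and its adjusted p was 0.664 with only the 9 arrays fitted. Cyp1a2, the abundant hepatic member of the family, had 13.47, 14.32, 14.34 and 13.78 against 13.0, 12.92, 13.19, 13.31 and 13.15. It did not overlap, was also highest in livers 2 and 3, and rose by 0.86 ± 0.194 (adjusted p = 0.0098), though it did not pass without PBO liver 3, where it stood at 0.74. These were the only 2 of 14 measured AhR targets to rise, beside 0.489% of all genes. None fell, the median was −0.04, and Cyp1b1, at −0.39 ± 0.206, and Gsta2, at 0.56 ± 0.406, did not pass.

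Promoter sequence is shown for Cyp1a1, whose livers split, and for Ces2a, Cyp3a11 and Cyp3a44, whose livers did not. The stretches of 100 bases come from RefSeq (build GRCm38.p6), lie within the 250 bases before the transcription start and run 5′ to 3′ on the gene's strand. Capitals mark GCGTG, the core that AhR binds, in Cyp1a1, and the hexamers AGGTCA and AGTTCA, half-sites of nuclear receptors, in the other genes. Both strands were searched. Cyp1a1 is on the plus strand at chr9:57697511-57697610, Ces2a on the plus strand at chr8:104733753-104733852, Cyp3a11 on the minus strand at chr5:145879954-145880053 and Cyp3a44 on the minus strand at chr5:145805972-145806071.
Cyp1a1: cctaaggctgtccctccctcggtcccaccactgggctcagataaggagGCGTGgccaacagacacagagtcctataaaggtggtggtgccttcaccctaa
Ces2a: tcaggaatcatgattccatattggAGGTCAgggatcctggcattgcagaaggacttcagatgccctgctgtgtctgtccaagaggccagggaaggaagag
Cyp3a11: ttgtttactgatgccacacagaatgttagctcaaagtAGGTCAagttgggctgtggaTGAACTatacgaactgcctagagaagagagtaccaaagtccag
Cyp3a44: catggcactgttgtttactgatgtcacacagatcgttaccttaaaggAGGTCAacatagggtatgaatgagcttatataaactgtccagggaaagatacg

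These letters are common and are given as a description. Of 14452 tested genes with a promoter in the table, 42.5% held GCGTG and 23.8% held AGGTCA or AGTTCA within the 250 bases. Of the 17 CAR or PXR targets that rose, 16 had a promoter and 7 of these (43.8%) held a half-site. The share was 30.6% among all risen genes with a promoter (22 of 72) and 40% among the fallen ones (18 of 45).

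Some genes of conjugation rose as well, mainly glutathione transferases. Gstm3, a glutathione transferase of the mu class and a marker of CAR activation in mice, had 11.84, 14.48, 13.60 and 12.29 against 10.76, 10.88, 11.0, 11.25 and 11.14. It rose by 2.04 ± 0.346 (adjusted p = 0.000136), with livers 2 and 3 highest and no overlap. Gstt3, of the theta class, had 8.32, 10.34, 8.86 and 8.48 against 6.37, 6.81, 8.03, 7.72 and 7.55 and rose by 1.71 ± 0.339, with liver 1 only just above Co2 liver 3. Gstt3 did not pass against the mean of the other 4 CMC cohorts, at 0.63 (adjusted p = 0.0787). Co2 stood at −1.08 against that mean. In all, 6 of 21 glutathione transferases rose and none fell, beside 0.489% and 0.319% of all genes, with a median of 0.29. Against the other 4 CMC cohorts 6 were higher and 7 lower, with a median of −0.05, where 33% of all genes differed. The other risen members against Co2 were Gstm2 at 1.13, Gstm4 at 0.71, Gstt1 at 0.52 and Gstm1 at 0.45. Gstt2, at 0.79 ± 0.252, did not pass. Gstm1 lost its call without any of PBO livers 1 to 4 or Co2 livers 3 to 5 (0.39 to 0.49), Gstt1 without PBO livers 1, 3 or 4 or Co2 livers 3 to 5 (0.48 to 0.57), and Gstm4 without PBO livers 2 or 3 (0.57 and above).

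Ugdh, the enzyme that makes the sugar donor for glucuronidation, had 12.70, 12.61 and 12.33 in PBO livers 2 to 4 and 12 in liver 1 against 11.39, 11.78, 11.66, 11.56 and 11.66 and rose by 0.80 ± 0.143 (adjusted p = 0.000349). It was the only 1 of 13 genes of glucuronidation to rise, and none fell. Ces2a was the only 1 of 10 carboxylesterases to rise, and no sulfotransferase of 10 passed. Of 16 partners of the P450 enzymes and other microsomal enzymes 3 rose, namely Ephx1 by 0.89 ± 0.189, Cyb5a, cytochrome b5, by 0.28 ± 0.0544 and Pgrmc1, a haem-binding partner of P450 enzymes, by 0.22 ± 0.0516. Against the mean of the other 4 CMC cohorts these 3 stood at −0.02, 0.14 and −0.05, and only Cyb5a passed. Pgrmc1 lost its call without PBO liver 2 or Co2 liver 1 (0.17 and above). Por, the P450 reductase, was not measured by a probe set named for it alone.

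Of 35 NRF2 targets, the antioxidant programme, 8 rose and none fell, beside 0.489% and 0.319% of all genes, with a median of 0.33. They were Gstm1 to Gstm4, Ephx1, Abcc3, Ugdh and Entpd5, a nucleotidase of the endoplasmic reticulum, at 0.64 ± 0.134. Entpd5 did not pass without PBO liver 3 (0.54), nor as the mean of its 6 probe sets. Nqo1, the most used marker of NRF2 activity, had 6.83, 7.60, 6.53 and 7.34 against 6.56, 7.28, 6.74, 6.70 and 6.58 and did not pass, at 0.30 ± 0.259. Against the other 4 CMC cohorts 10 members of this list were higher and 10 lower, with a median of −0.02, where 33% of all genes differed.

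Several genes of lipid handling were higher in PBO livers, but their control levels differed between cohorts. Cd36, the fatty acid transporter and a PXR and PPARα target, had 9.68, 10.80, 9.69 and 9.84 against 8.80, 7.27, 8.13, 7.58 and 8.72. It rose by 1.90 ± 0.340 (adjusted p = 0.000349) with no overlap, and by 1.27 against the other cohorts. Apoa4, an apolipoprotein of lipid-loaded liver and gut, had 12.67, 13.41, 13.05 and 12.99 against 12.18, 11.76, 10.89, 11.45 and 11.49 and rose by 1.47 ± 0.365 (adjusted p = 0.0262). Its call was lost without PBO livers 2, 3 or 4 or Co2 livers 3 or 4 (1.31 to 1.63).

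Vnn1, a pantetheinase controlled by PPARα, had 9.93, 9.66, 9.94 and 10.30 against 7.92, 8.88, 8.62, 8.47 and 7.98 and rose by 1.58 ± 0.369 (adjusted p = 0.0145). Without PBO liver 4 the call was lost, at 1.47. The mean of Vnn1 in the other 4 CMC cohorts lay between 9.80 and 11.50, so that PBO stood at −0.59 against their mean. Aldh3a2, the fatty aldehyde dehydrogenase, rose by 0.94 ± 0.250 (adjusted p = 0.0463) against Co2 and stood at −1.0 against the mean of the other cohorts. Its call was lost without PBO livers 1, 3 or 4 or Co2 livers 1, 2, 4 or 5 (0.85 to 1.07). Cd36, Vnn1 and Aldh3a2 were the only 3 of 51 PPARα targets to rise, and none fell, with a median of 0.22. Over all genes 0.489% rose and 0.319% fell. In Co2 itself 37 of the 51 were lower than in the other cohorts and none was higher, with a median of −0.76. Of all genes 16.9% were lower and 14.1% higher.

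**Figure D3:**
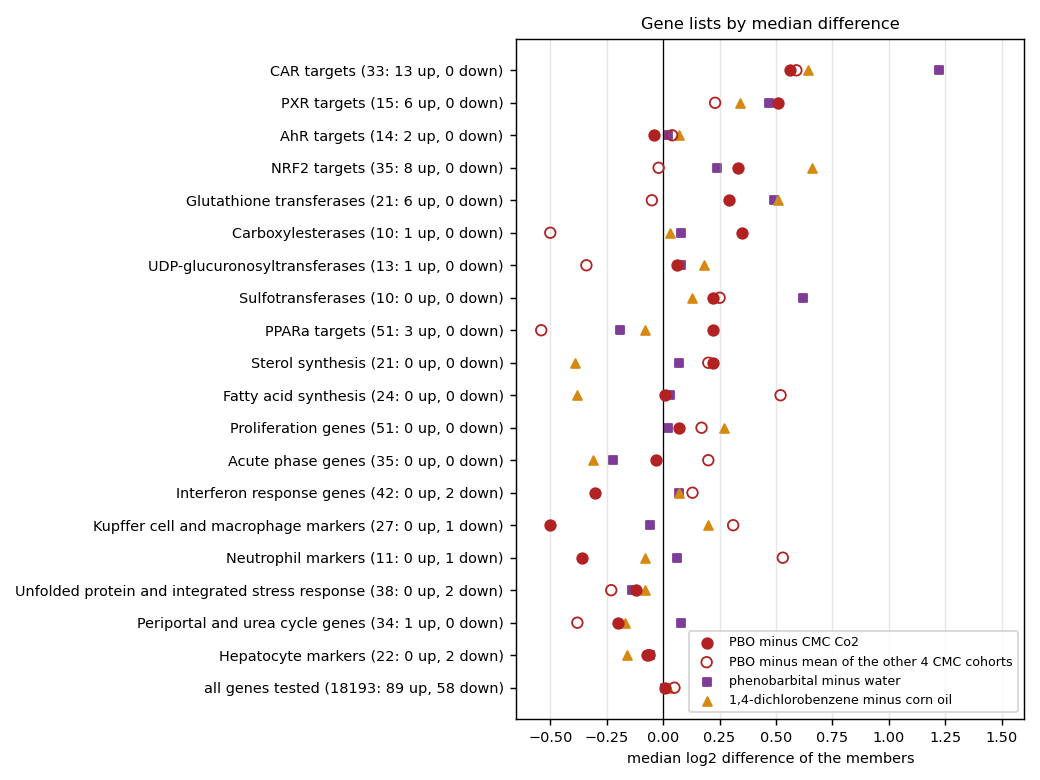
Median log2 difference (x axis) of the members of 19 gene lists and of all genes (y axis, with the number measured and the numbers passing up and down for PBO minus CMC Co2). Filled circles are PBO minus CMC Co2, open circles PBO minus the mean of the other 4 CMC cohorts, squares phenobarbital minus water and triangles 1,4-dichlorobenzene minus corn oil. CAR targets stand at 0.56 and 0.59 against both sets of controls, while macrophage markers stand at −0.50 and 0.31.

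Several genes of the interferon response fell, against a control cohort in which they were high. Igtp, an interferon-induced GTPase that guards against intracellular parasites, had 10.27, 9.65, 9.79 and 9.73 in PBO livers and 10.74, 11.12, 11.33, 10.98 and 10.98 in Co2. It did not overlap and fell by 1.17 ± 0.285 (adjusted p = 0.0229). Gbp3, a guanylate-binding protein of the same defence, had 8.20, 7.11, 7.68 and 7.05 against 8.66, 8.92, 9.23, 7.98 and 8.22, and PBO liver 1 lay inside the control range. It fell by 1.09 ± 0.278 (adjusted p = 0.0334). They were the only 2 of 42 interferon response genes to pass, with none risen, a median of −0.30 and 38 of the 42 lower in PBO. Over all genes 0.319% fell, and 8487 of 18193 were lower.

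The relatives Irgm2 and Gbp2b, which are not on that list, fell by 1.24 ± 0.286 and 1.34 ± 0.341 with no overlap between the groups. Genes of MHC class I, which present peptides to killer T cells, were looked up after some were seen to fall. Of 13 measured under an H2 class I symbol 4 fell, none rose and 9 did not pass, with a median of −0.17. Over all genes 0.319% fell. H2-K1 fell by 0.42 ± 0.0944, H2-D1 by 0.53 ± 0.128, H2-Q2 by 1.03 ± 0.272, H2-Q5 by 0.54 ± 0.145 and their light chain B2m by 0.23 ± 0.0605, and the peptide transporter gene Tap2 fell by 0.56 ± 0.130. They have close sequences, and H2-D1 passed in 4 of its 9 probe sets, with 8 lower in PBO. H2-Q5 has 2 probe sets, of which 1 was lower in PBO and neither passed when all probe sets were tested, and their mean stood at −0.10. None of 10 MHC class II genes passed, with a median of −0.20. These calls depended on single livers. Igtp did not pass without PBO livers 2, 3 or 4 or Co2 liver 3 (−1.30 to −1.09 with 1 liver left out), Gbp3 without PBO livers 2, 3 or 4 or Co2 livers 2 or 3 (−1.32 to −0.93) and Gbp2b without PBO livers 2 or 4 or Co2 livers 3 or 4 (−1.57 to −1.14). Irgm2 did not pass without PBO liver 4 or Co2 liver 3 (−1.05 and −1.04), H2-K1 without Co2 liver 3 (−0.37) and Tap2 without PBO liver 2 or Co2 liver 3 (−0.48 and −0.50). H2-D1 was lost without PBO livers 3 or 4 or Co2 livers 3, 4 or 5 (−0.63 to −0.42) and H2-Q2 without PBO livers 2, 3 or 4 or Co2 livers 1, 4 or 5 (−1.51 to −0.75). H2-Q5 was lost without any PBO liver or Co2 livers 1, 2 or 4 (−0.63 to −0.45), and B2m without PBO livers 2 or 3 or Co2 livers 1, 3, 4 or 5 (−0.29 to −0.13).

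Co2 was high for many of these genes. The mean of Igtp was 11.03 ± 0.215 (SD, n = 5) in Co2 and between 9.09 and 10.03 in the other 4 CMC cohorts, so that PBO stood at 0.36 against their mean. Gbp3 averaged 8.60 in Co2 and 6.65 to 7.29 in the others, and PBO stood at 0.60. Of the 42 interferon response genes 21 were higher and 2 lower in Co2 than in the other cohorts, beside 14.1% and 16.9% of all genes. Where 33% of all genes differed, 9 were higher and 5 lower in PBO against those cohorts, with a median of 0.13. Irgm2, H2-D1, H2-K1 and B2m kept a lower mean against them, at −0.95, −0.48, −0.29 and −0.13, and passed. Tap2, at −0.10, did not pass, and H2-Q2 and H2-Q5 stood at 0.63 and 0.42. Macrophage markers moved in the same direction as the interferon genes, with 25 of 27 lower in PBO beside 8487 of all 18193 genes. Their part in the falls of the interferon genes was not tested.

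The promoters of Igtp and Irgm2, neighbours on the plus strand of chromosome 11 at chr11:58199456-58199555 and chr11:58214868-58214967 (RefSeq, GRCm38.p6), are shown because both genes fell together. Capitals mark GAAANNGAAA, the pattern of interferon response elements.
Igtp: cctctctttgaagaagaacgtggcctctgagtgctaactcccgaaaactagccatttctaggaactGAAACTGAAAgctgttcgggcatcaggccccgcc
Irgm2: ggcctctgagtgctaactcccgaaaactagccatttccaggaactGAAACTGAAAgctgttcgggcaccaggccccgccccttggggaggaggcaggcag

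The stretches share an unbroken run of 37 bases. Of the 58 fallen genes 45 had a promoter in the table, and 5 of these (11.1%) held the pattern on either strand within 250 bases, namely Igtp, Irgm2, Gbp2b, Gbp3 and B2m. Over all genes tested the share was 3.13%.

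Markers of macrophages and neutrophils were lower in PBO livers, with few calls. Marco, a scavenger receptor of Kupffer cells, had 6.44, 6.22, 7.25 and 6.45 in PBO and 8.39, 10.19, 7.88, 8.48 and 7.94 in Co2. Co2 liver 2 was far above the other controls, and the groups did not overlap. Marco fell by 1.98 ± 0.533 (adjusted p = 0.0478), by 1.58 without Co2 liver 2, and its call was lost without any of PBO livers 1 to 4 or Co2 livers 2 or 4. It was the only 1 of 27 macrophage markers to pass, where 0.319% of all genes fell, with a list median of −0.50. The list mean ran from 7.17 to 8.03 in PBO, 7.80 to 8.36 in Co2 and 6.38 to 8.49 in the other CMC livers. In Co2 17 of the 27 were higher than in the other cohorts and none was lower, beside 14.1% and 16.9% of all genes.

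Camp, the granule peptide of neutrophils, had 7.81, 6.06, 5.84 and 5.94 against 10.04, 5.62, 7.30, 6.77 and 8.22, so that the groups overlapped and Co2 liver 1 stood alone. It fell by 1.18 ± 0.318 (adjusted p = 0.0491), by 0.56 without Co2 liver 1, and lost its call without PBO livers 2, 3 or 4 or Co2 livers 1, 3 or 5. The other 10 neutrophil markers did not pass. The list mean was 5.99 to 6.62 in PBO, 6.00 to 7.89 in Co2 and 4.96 to 5.81 in the other CMC livers. In Co2 10 of the 11 were higher than in the other cohorts, beside 14.1% of all genes.

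A different group of falls was also seen against the other control cohorts. Mug1, which encodes the plasma protease inhibitor murinoglobulin, had 11.67, 11.85, 11.34 and 11.65 in PBO and 12.28, 12.49, 13.26, 12.83 and 12.52 in Co2. It fell by 1.05 ± 0.147 (adjusted p = 1.34e-06) with no overlap, passed without each liver, and stood at −1.65 against the other cohorts, whose means lay between 12.93 and 13.57. Other plasma proteins of the hepatocyte fell by less. Ahsg, fetuin A, fell by 0.43 ± 0.107, F2, prothrombin, by 0.34 ± 0.0769 and Igf1, the growth factor that liver releases under growth hormone, by 0.32 ± 0.0840. Ahsg and F2 were the 2 of 22 hepatocyte markers to fall, beside 0.319% of all genes, none rose, and the list median was −0.07. Each of the 3 overlapped with Co2 and each passed against every other CMC cohort alone. Their calls against Co2 were lost without PBO livers 3 or 4 or Co2 livers 3 or 4, for Ahsg and Igf1 also without Co2 liver 5 and for Igf1 without PBO liver 1, with values of −0.55 to −0.33 for Ahsg, −0.45 to −0.28 for F2 and −0.42 to −0.28 for Igf1.

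A pair of genes of protein folding in the endoplasmic reticulum, 2 of 38 on the list of the unfolded protein and integrated stress response, fell as well. Creld2, an induced factor of the unfolded protein response, had 9.13, 9.0, 8.34 and 8.72 against 9.63, 9.78, 10.89, 10.35 and 9.83. Hsp90b1, the chaperone GRP94, had 12.90, 12.98, 12.59 and 12.87 against 13.21, 13.39, 13.38, 13.35 and 13.15. Neither overlapped. Creld2 fell by 1.30 ± 0.292 (adjusted p = 0.0098) and Hsp90b1 by 0.46 ± 0.100 (adjusted p = 0.00632), and both passed against each other CMC cohort alone. Both lost the call without PBO liver 3, and Creld2 without Co2 liver 3 as well (Creld2 −1.42 to −1.10, Hsp90b1 −0.51 to −0.38). No gene of the list rose, and its median was −0.12, where 0.319% of all genes fell.

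**Figure D4:**
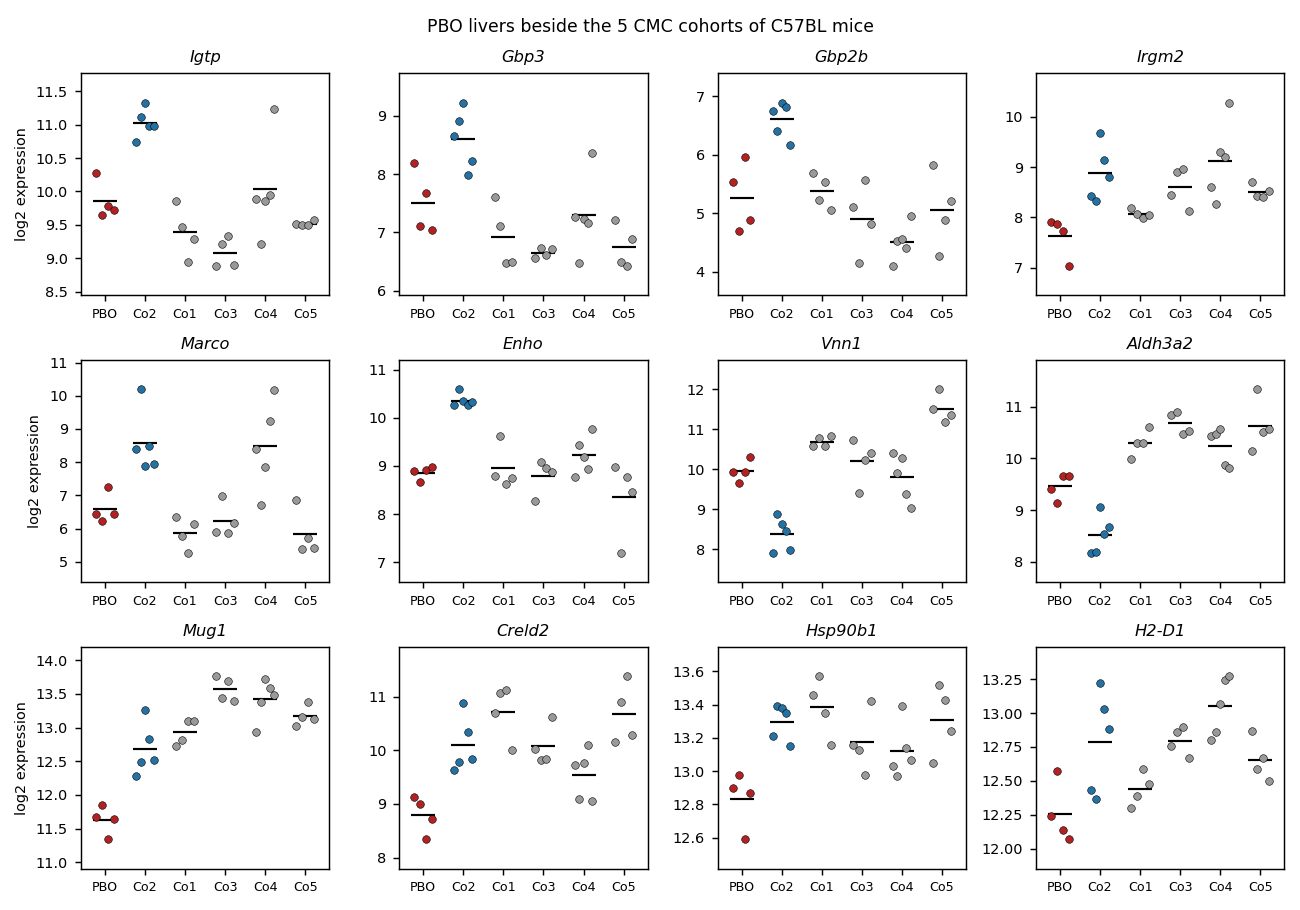
Log2 expression (y axis) of 12 genes in PBO livers (red), their control cohort Co2 (blue) and the other 4 CMC cohorts of C57BL mice (grey), with 1 point per liver and bars at group means. Igtp, Gbp3, Gbp2b and Enho are high in Co2 and Vnn1 and Aldh3a2 low in Co2 relative to the other cohorts. PBO is the lowest group for Mug1, Creld2, Hsp90b1 and H2-D1.

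The promoters of Creld2, on the plus strand at chr15:88819479-88819578, and Hsp90b1, on the minus strand at chr10:86705493-86705592 (RefSeq, GRCm38.p6), are shown because both hold the endoplasmic reticulum stress element. Capitals mark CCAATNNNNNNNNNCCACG, which lies on the opposite strand in both stretches.
Creld2: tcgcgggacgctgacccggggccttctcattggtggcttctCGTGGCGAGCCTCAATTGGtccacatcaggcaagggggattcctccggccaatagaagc
Hsp90b1: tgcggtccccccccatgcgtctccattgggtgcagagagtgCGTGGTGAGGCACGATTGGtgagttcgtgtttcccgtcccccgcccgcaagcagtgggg

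The Hsp90b1 promoter held 2 matches in its 250 bases, of which 1 lies in the stretch. Over all genes tested, 19 of 14452 (0.131%) held the element. Creld2 and Hsp90b1 were the only 2 of the 45 fallen genes with a promoter in the table to hold it.

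Other falls concerned genes of diverse function. Enho, which encodes the peptide adropin, had 8.89, 8.67, 8.92 and 8.97 against 10.27, 10.59, 10.34, 10.27 and 10.32 and fell by 1.5 ± 0.367 (adjusted p = 0.0239). The control level was again unusual, since the other 4 CMC cohorts averaged 8.35 to 9.22 and PBO stood at 0.03 against them. Only 1 of the 4 probe sets of Enho passed, 2 pointed down, their mean did not pass, and the call was lost without PBO liver 3 (−1.52).

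Rdh16f2, of a retinol dehydrogenase family, fell by 1.08 ± 0.271, Neb, the giant actin-binding protein nebulin, by 1.0 ± 0.247 and Gpc1, the proteoglycan glypican 1, by 0.96 ± 0.210. Nuak2, an AMPK-related kinase, fell by 0.82 ± 0.192 and Pla2g4a, a phospholipase that frees arachidonic acid, by 0.77 ± 0.197. Without PBO liver 3 each of these lost its call, and Rdh16f2, Nuak2 and Pla2g4a did so without Co2 liver 3. Rdh16f2 was also lost without Co2 liver 4, Neb without PBO liver 4 or Co2 liver 2, and Pla2g4a without PBO livers 1 or 4. With 1 liver left out they ranged from −1.21 to −0.95, −1.15 to −0.81, −1.03 to −0.76, −0.93 to −0.66 and −0.84 to −0.67. Notum, a secreted inhibitor of Wnt signalling in perivenous hepatocytes, fell by 0.65 ± 0.164, and Slc30a10, a manganese exporter, by 0.90 ± 0.238, with PBO liver 1 inside the control range. Notum lost its call without PBO livers 2 or 4 or Co2 livers 3 or 4 (−0.71 to −0.55), and Slc30a10 without PBO livers 3 or 4 or Co2 livers 3 or 4 (−1.11 to −0.57).

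Among the remaining large rises, Cav1, which encodes the membrane coat protein caveolin 1, had 9.08, 8.83, 9.40 and 7.67 against 7.31, 7.43, 7.66, 6.93 and 7.51. Liver 4 stood only just above the highest control. It rose by 1.38 ± 0.347 (adjusted p = 0.0305), and lost its call without PBO livers 1 or 3 or Co2 liver 4 (1.16 to 1.74). Slc22a29, an organic anion transporter, rose by 1.45 ± 0.391 and Meig1 by 1.35 ± 0.318. The call of Meig1 was lost without PBO liver 2 (0.76) or Co2 liver 3, and that of Slc22a29 without PBO livers 2 or 4 or Co2 livers 2 to 5 (1.15 to 1.71).

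Gene groups of growth and metabolism gave few or no calls. None of 51 proliferation genes passed, with a median of 0.07 and Mki67 at 0.06 ± 0.370, and none of 25 cyclins and growth regulators, with Ccnd1, cyclin D1, at −0.43 ± 0.416. None of 26 p53 and DNA damage genes passed, and Cdkn1a, the cell cycle inhibitor p21, stood at −0.10 ± 0.381. Gadd45b, a stress gene linked to CAR, stood at 0.47 ± 0.311 and did not pass. No gene of 35 in the acute phase response, 21 in sterol synthesis or 24 in fatty acid synthesis passed, with medians of −0.03, 0.22 and 0.01. The mean of the acute phase list was 12.08 in PBO liver 2 and 10.82 to 11.18 in the other PBO livers. In Co2 it was 10.82 to 11.43. Cyp7a1, the rate-limiting enzyme of bile acid synthesis, ranged from 9.64 to 10.85 in PBO and from 9.65 to 12.12 in Co2 and stood at −0.53 ± 0.433. Alas1, the first enzyme of haem synthesis, spread from 9.54 to 11.86 in PBO and from 8.90 to 11.40 in Co2 and stood at 0.28 ± 0.468. In both genes the spread within each group was wider than the difference between the groups. Of 34 periportal genes 1 rose (Apoa4) and of 27 perivenous genes 3 rose (Cyp1a2, Cyp2c29 and Aldh3a2) and 1 fell (Notum). Over all genes 0.489% rose and 0.319% fell.

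PBO was then set beside phenobarbital (PB, 0.05% w/v in drinking water, control water), the reference activator of CAR, each after 28 days and against its own control of 5 livers. The comparison shares no control arrays, but vehicle, route and dose differ along with the compound and cannot be told apart. The titles of the PB arrays end in a mark, (2), that the labels do not explain. PB raised 23 of the 33 CAR targets and 6 of the 15 PXR targets, with medians of 1.22 and 0.47, where 104 of all genes (0.572%) rose. The difference between the responses passed for 28 genes (0.154%), 15 with a larger and 13 with a smaller response to PBO. That count was 47 without PBO liver 1.

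Cyp2b10 gave the widest gap. PB livers lay between 13.42 and 13.74 and water livers between 5.45 and 5.87, a response of 7.93 ± 0.467, so that the response to PBO was lower by 5.23 ± 0.680 (difference −5.23, 95% interval −6.59 to −3.88, adjusted p = 6.28e-07). Even PBO liver 2, at 11.89, was below every PB liver. Cyp2b9, a female-biased relative, answered PB with 4.54 ± 0.635 and PBO with 0.22 ± 0.674 (difference −4.32, adjusted p = 0.0158). Abcc4, an export pump, Cyp2c65, Serpinb1a, an inhibitor of neutrophil proteases, and Meg3, a noncoding RNA of an imprinted cluster that is a marker of CAR-driven tumour promotion, also responded less to PBO, by differences of −2.62, −2.38, −2.26 and −1.63. Meg3 had 7.41, 7.31, 7.76 and 7.61 in PBO and 7.97, 8.21, 7.37, 7.60 and 7.70 in Co2, and differed by −0.25 ± 0.192, beside 1.38 ± 0.181 after PB. Only 3 of the 11 probe sets of Meg3 were lower in PBO, and none passed. Against the mean of the other 4 CMC cohorts Co2 stood at 0.44 and PBO at 0.19. The difference for Serpinb1a did not pass without Co2 liver 3 (−2.15).

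Other genes gave no such gap. Cyp2c55 answered with 4.02 and 5.56, and the difference of −1.53 (95% interval −2.61 to −0.45) did not pass, though it did without PBO liver 2, at −2.42. Cyp1a2 answered with 0.86 and 0.84, a difference of 0.02 with an interval of −0.51 to 0.55. Cyp3a11, near the top of the scale in every group, answered with 0.51 and 0.21, and the difference of 0.30 (interval 0.15 to 0.45, adjusted p = 0.0713) passed without PBO liver 1, Co2 liver 1 or Co2 liver 5, at 0.32 to 0.33. Cyp1a1 answered PBO with 2.09 and PB with 0.26, a difference of 1.83 (interval 0.80 to 2.86, adjusted p = 0.136) that passed without PBO liver 1 or 4. Responses larger under PBO included those of Vnn1, by 2.17 ± 0.507, Spc25, a kinetochore gene, by 1.80 ± 0.420, Sox6os, annotated opposite Sox6, so that the signal may belong to either, by 1.40 ± 0.274, Chrna2, a nicotinic receptor subunit, by 1.15 ± 0.269 and Pex11a, a gene of peroxisome division, by 1.10 ± 0.262. For Spc25, Chrna2 and Pex11a the larger part of the gap was a fall after PB, of −1.14, −0.92 and −0.78, and Spc25 did not pass as the mean of its 2 probe sets, at 0.90. The calls of these 3 genes and of Vnn1 were lost without PBO liver 3, PBO liver 4 or Co2 liver 5 and without 2 to 4 other livers each, with ranges of 1.64 to 2.08 for Spc25, 1.04 to 1.27 for Chrna2, 0.96 to 1.28 for Pex11a and 2.05 to 2.30 for Vnn1. Co2 was lower than the mean of the other 4 CMC cohorts for Vnn1 (−2.17), Spc25 (−1.04), Chrna2 (−0.60) and Pex11a (−0.77). Against that mean PBO stood at −0.59, −0.38, −0.37 and −0.44 for these genes, and at 0.81 for Sox6os. The part of the Co2 level in these gaps was not tested.

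**Figure D5:**
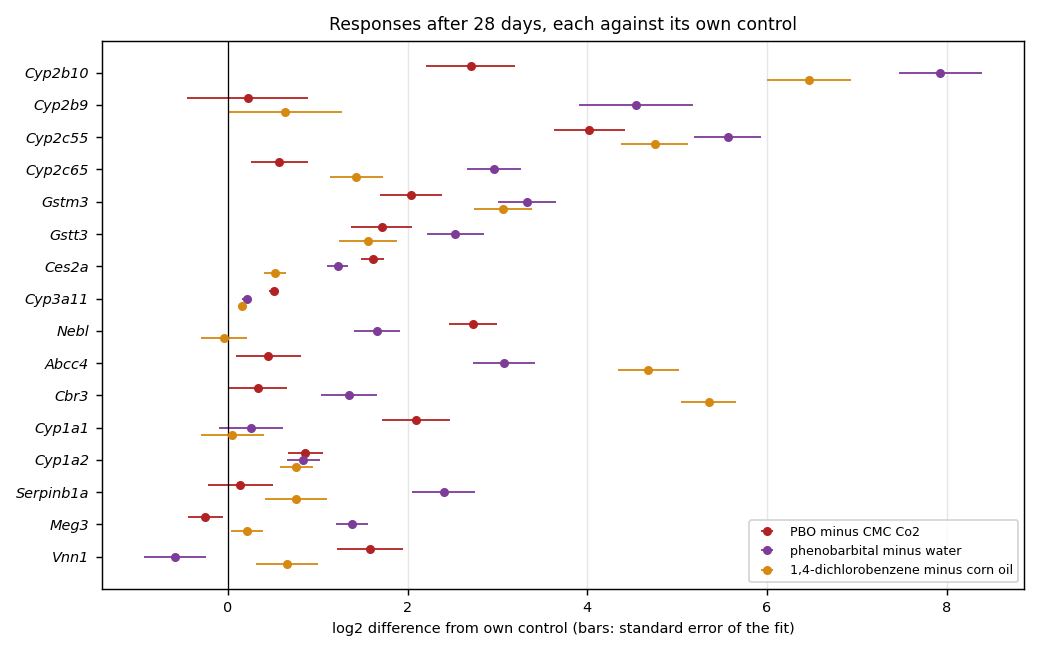
Log2 difference from each compound's own control (x axis) with its standard error for 16 genes (y axis), for PBO in red, phenobarbital in purple and 1,4-dichlorobenzene in orange. The Cyp2b10 points lie at 2.70, 7.93 and 6.47, the Cyp1a1 points at 2.09, 0.26 and 0.05, and the Cyp1a2 points at 0.86, 0.84 and 0.76.

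1,4-Dichlorobenzene (DCB), another chemical that causes liver tumours in mice, was given at the same 600 mg/kg for 28 days, but by oral gavage and against corn oil. It raised 20 of the 33 CAR targets and 21 of the 35 NRF2 targets, where 392 of all genes (2.15%) rose. The difference from the PBO response passed for 87 genes (0.478%), 27 larger and 60 smaller under PBO. The count was 299 without PBO liver 2, 57 without PBO liver 3 and 195 without Co2 liver 2, and 29 with only the 4 groups fitted.

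Ces2a and Nebl answered PBO more strongly than DCB. Ces2a rose by 1.61 under PBO and by 0.52 under DCB, a difference of 1.09 ± 0.177 (adjusted p = 4.35e-05). Nebl answered with 2.73 and −0.04 (difference 2.77 ± 0.371, adjusted p = 2.91e-07). Over other fits and probe set rules the difference for Nebl lay between 1.09 and 2.93. Cyp3a11 differed by 0.34 ± 0.0749 (adjusted p = 0.0085), but its groups all lay between 14.30 and 14.97, where signals flatten, so the sizes of its responses cannot be ranked. Cyp1a1 answered with 2.09 and 0.05, and its difference of 2.04 ± 0.517 (adjusted p = 0.0411) was lost without PBO livers 2 or 3 or Co2 livers 3 or 4, at 1.12 to 2.04. DCB livers held Cyp1a1 between 5.07 and 6.09. Pard3b, a cell polarity gene, and Atg14, an autophagy gene, also differed, by 1.08 and 0.92. For Atg14 the larger part was a fall after DCB, of −0.57, beside 0.35 under PBO, which did not pass. Pard3b rose by 0.92 under PBO, and by 0.47 to 0.93 over other fits and probe set rules. Of its 3 probe sets 1 passed.

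Cbr3, a carbonyl reductase, gave the largest gap the other way. It stood at 5.50 ± 0.185 in PBO and 5.17 ± 0.150 in Co2 (SD, n = 4 and 5), and at 11.03 ± 0.503 in DCB and 5.69 ± 0.168 in corn oil livers (SD, n = 5 each), so that the responses differed by −5.02 ± 0.450 (adjusted p = 6.39e-14). Abcc4 differed by −4.22, Cyp2b10 by −3.78, Mgst2, a microsomal glutathione transferase, by −3.40 and Amn, the partner of the endocytic receptor cubilin, by −2.40. The difference for Cyp2b10 had a 95% interval of −5.13 to −2.42 and did not pass with only the 4 groups fitted. Cyp2c55 and Cyp1a2 did not differ beyond the error, with intervals of −1.81 to 0.35 and −0.43 to 0.63, though Cyp2c55 did without PBO liver 2, at −1.62.

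The rises and falls held to different degrees when other vehicle livers took the place of Co2. Of the 89 genes that rose, 73 were higher at an adjusted p below 0.05 against the mean of the other 4 CMC cohorts, and 36 against each of them alone. Of the 58 that fell the numbers were 38 and 26. The difference had the opposite sign for 9 of the risen and 12 of the fallen genes. Cyp2c55, Cyp2b10, Nebl, Gstm3, Gstm2, Ces2a, Cyp3a11, Cyp3a44, Cyp2c29, Cyp1a1, Cyp1a2, Cav1, Slc22a29 and Meig1 rose against every cohort taken alone, and Mug1, Creld2, Hsp90b1, Ahsg, F2, Igf1 and Slc30a10 fell. These calls share the PBO livers and were made where 33% of all genes differed from the other cohorts' mean. The labels name Co2 as the control of PBO. A difference in route or handling between it and the other cohorts cannot be told apart.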

How the data were processed

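Liver RNA came from a Qiazol extraction and was biotin-labelled (3'IVT Express kit), per the labels' protocols. The deposited table holds log2 expression values made with RMA, per the submitters' processing notes, for 45037 probe sets on 91 arrays, from 2.61 to 15.34. The version of RMA and the genome build are not given in the sources used here. Array medians lay between 5.18 and 5.36. Their number limits the precision, and the depth of an array is not defined as it is for counts.

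Of the probe sets 34945 name 1 gene symbol, 932 several and 9160 none. For each of 18193 genes the brightest probe set, by its mean across the series, was used, and 9010 genes had more than 1. A linear model with a mean for each of the 19 groups was fitted to all 91 arrays (limma 3.58.1, R 4.3.3, 72 residual degrees of freedom, moderation with a mean-variance trend). p-values are two-sided and adjusted over all genes. On simulated data with 200 changed genes, 41.8% of changes of 0.5, 97% of changes of 1 and 100% of changes of 2 log2 units were recovered for PBO against Co2, and 2.45% of calls were false. These rates describe the simulated data and are not an error rate of the 147 genes.

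The members and the 46 gene lists (1012 of 1146 named genes measured) were chosen with earlier results of these data known. Genes are named by a rule: the 12 largest rises and 12 largest falls in which all 4 PBO values lay outside the Co2 range, clone names passed over, a set of fixed genes, up to 4 genes of each list and the 5 largest differences each way from phenobarbital and from 1,4-dichlorobenzene. Other passing list members and the MHC class I genes were named after their values were seen. Alternatives were the arrays fitted, the moderation, array weights, the probe set rule, a filter on dim genes (above 6.24 on at least 4 arrays), median centring, the replicate number as a block, each liver left out and other control cohorts. A fit with the first principal component as a covariate and one without Co2 livers 1 and 2 were chosen after seeing the data. Replicate numbers are not stated to pair the mice. Deviations from the group means of the 4 same-numbered pairs correlated at 0.0714, −0.321, −0.206 and −0.142. Those of differently numbered pairs lay between −0.359 and 0.327, so these values cannot settle whether mice were paired. Promoters come from a RefSeq table of build GRCm38.p6.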

Additional observations from a re-analysis of the deposited data

Results flagged for a closer look

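Of 166 groups of livers examined, for 83 named genes in PBO and in Co2, 12 held a liver far from the others of its group, and chance gives about 1 in 20. In PBO liver 2, Abcc3 stood at 11.54 (next liver 10.52), Cd36 at 10.80 (next 9.84), Cdkn1a at 7.40 (next 6.76) and Igf1 at 12.58 (next 12.22), each above the other 3 livers, and H2-Q5 at 7.17 (next 7.51) was below them. Camp stood at 7.81 in PBO liver 1 (next 6.06) and Gpc1 at 5.57 in PBO liver 3 (next 6.32). Among the controls, Enho stood at 10.59, Marco at 10.19 and Nqo1 at 7.28 in Co2 liver 2 (next 10.34, 8.48 and 6.74), Cyp1b1 at 6.55 in Co2 liver 1 (next 5.65) and Serpinb1a at 5.19 in Co2 liver 3 (next 4.73).

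The response to PBO differed from the response to phenobarbital, at an adjusted p below 0.05 for the difference itself, for 12 of the named genes. It was lower by −5.23 for Cyp2b10, −4.32 for Cyp2b9, −2.62 for Abcc4, −2.38 for Cyp2c65, −2.26 for Serpinb1a, −1.63 for Meg3 and −0.87 for Mug1. It was higher by 2.17 for Vnn1, 1.80 for Spc25, 1.40 for Sox6os, 1.15 for Chrna2 and 1.10 for Pex11a. Of the last group, Vnn1, Spc25, Chrna2 and Pex11a were lower in Co2 than in the other CMC cohorts. Of the group with a lower response, Meg3 was higher in Co2 (0.44) and Mug1 lower (−0.60).

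The response to PBO differed from that to 1,4-dichlorobenzene for a further set. The difference was −5.02 for Cbr3, −4.22 for Abcc4, −3.78 for Cyp2b10, −3.40 for Mgst2, −2.40 for Amn, −2.06 for Gbp2b, −1.70 for Nqo1, −1.67 for H2-Q2, −1.48 for both Gstm2 and Gstm4 and −1.21 for Pla2g4a. It was 2.77 for Nebl, 2.04 for Cyp1a1, 1.09 for Ces2a, 1.08 for Pard3b, 0.92 for Atg14 and 0.34 for Cyp3a11. Co2 was higher than the other CMC cohorts for Gbp2b (1.65), H2-Q2 (1.65), Pla2g4a (0.74) and Mgst2 (0.63). It was lower for Pard3b (−0.48), Ces2a (−0.37) and Cyp3a11 (−0.20). Against those cohorts PBO stood at 0.31 for Gbp2b, 0.63 for H2-Q2 and −0.04 for Pla2g4a. The part of the Co2 level in these differences was not tested. Vehicle, route and dose form differed with the compound and cannot be told apart from it.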

How the results depend on the processing

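The count of 147 genes for PBO against Co2 was 10 with only these 9 arrays fitted (9 of them among the 147), 35 at a 2-fold change or more and 71 to 271 when 1 liver was left out. Against other CMC livers it was 5995 (the other 4 cohorts), 4837 (all 5), 2445 (Co1), 5055 (Co3), 6042 (Co4) and 4361 (Co5). With the first principal component as a covariate 256 genes passed and without Co2 livers 1 and 2 1033, 315 of them higher, both chosen after seeing the data. The count for the difference from phenobarbital, 28, was 54 with array weights, 67 with the component, 200 without Co2 livers 1 and 2 and 20 to 47 with 1 liver left out. The count for 1,4-dichlorobenzene, 87, was 29 with only the 4 groups fitted, 236 with array weights, 138 without dim genes, 695 without Co2 livers 1 and 2 and 57 to 299 with 1 liver left out. For Co2 against the other cohorts, 5638 became 9858 over all probe sets, 415 with the component, 2531 without Co2 livers 1 and 2 and 4377 to 6008 with 1 liver left out. The cause of these shifts was not tested. With the replicate number as a block the 4 counts were 125, 31, 90 and 5619, and the numbers are not stated to pair the mice.

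Counting only genes that passed before or after the change, the sign turned for 22 named genes, each time against other CMC cohorts. Signs of genes that passed on neither side also turned, among them Spc25 (0.66 to −0.38) and Gsta2 (0.56 to −0.36) against the other 4 cohorts, and Alas1 (−0.11 to 0.66) and Mki67 (−0.19 to 0.22) over fits with 1 liver left out. Alas1 (0.28 against Co2) stood at −1.59 against Co4. Aldh1a1 (0.53 against Co2) stood at −0.19 against the other 4 cohorts, −0.05 against all 5 cohorts, −0.17 against Co1, −0.19 against Co3, −0.06 against Co4 and −0.34 against Co5. Aldh3a2 (0.94 against Co2) stood at −1.0 against the other 4 cohorts, −0.61 against all 5 cohorts, −0.83 against Co1, −1.22 against Co3, −0.77 against Co4 and −1.17 against Co5. Camp (−1.18 against Co2) stood at 1.05 against the other 4 cohorts, 0.60 against all 5 cohorts, 0.99 against Co1, 1.17 against Co3, 0.93 against Co4 and 1.10 against Co5. Chrna2 (0.22 against Co2) stood at −0.58 against Co5. Cyp7a1 (−0.53 against Co2) stood at 0.88 against the other 4 cohorts. Enho (−1.50 against Co2) stood at 0.03 against the other 4 cohorts, 0.07 against Co3 and 0.51 against Co5. Ephx1 (0.89 against Co2) stood at −0.02 against the other 4 cohorts, −0.08 against Co1 and −0.33 against Co5. Gbp2b (−1.34 against Co2) stood at 0.31 against the other 4 cohorts, 0.36 against Co3, 0.76 against Co4 and 0.22 against Co5. Gbp3 (−1.09 against Co2) stood at 0.60 against the other 4 cohorts, 0.26 against all 5 cohorts, 0.59 against Co1, 0.86 against Co3, 0.22 against Co4 and 0.75 against Co5. H2-Q2 (−1.03 against Co2) stood at 0.63 against the other 4 cohorts, 0.30 against all 5 cohorts, 0.79 against Co1, 0.61 against Co3, 0.38 against Co4 and 0.72 against Co5. H2-Q5 (−0.54 against Co2) stood at 0.42 against the other 4 cohorts, 0.22 against all 5 cohorts, 0.33 against Co1, 0.58 against Co3, 0.40 against Co4 and 0.35 against Co5. Igtp (−1.17 against Co2) stood at 0.36 against the other 4 cohorts, 0.05 against all 5 cohorts, 0.47 against Co1, 0.78 against Co3 and 0.34 against Co5. Marco (−1.98 against Co2) stood at 0.71 against Co1, 0.36 against Co3 and 0.74 against Co5. Mgst2 (−0.13 against Co2) stood at 0.49 against the other 4 cohorts, 0.37 against all 5 cohorts, 0.51 against Co3, 0.59 against Co4 and 0.61 against Co5. Neb (−1.0 against Co2) stood at 0.24 against the other 4 cohorts, 0.34 against Co1, 0.27 against Co4 and 0.38 against Co5. Pex11a (0.33 against Co2) stood at −0.44 against the other 4 cohorts, −0.65 against Co1 and −0.93 against Co5. Pgrmc1 (0.22 against Co2) stood at −0.05 against the other 4 cohorts, −0.09 against Co1, −0.09 against Co3 and −0.06 against Co5. Pla2g4a (−0.77 against Co2) stood at 0.15 against Co1 and 0.01 against Co3. Rdh16f2 (−1.08 against Co2) stood at 0.10 against Co1. Tap2 (−0.56 against Co2) stood at 0.12 against Co1. Vnn1 (1.58 against Co2) stood at −0.59 against the other 4 cohorts, −0.16 against all 5 cohorts, −0.73 against Co1, −0.24 against Co3 and −1.55 against Co5.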
